A study of Mus musculus with 6 samples.

Results

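The cyclic nucleotide phosphodiesterases described here are Pde1a, Pde3b, Pde4a, Pde4b, Pde4d, Pde5a, Pde7a, Pde8a and Pde10a. They were taken by gene symbol, and all 9 were found among the 13283 genes of the table. The cells were immortalized mouse brown preadipocytes (BAT cells) that express Cas9. MICT1 KO cells were pools, not clones, made by lentiviral sgRNA and sorting for GFP, and the labels do not say which of the sgRNAs gave which library. Scr control cells, whose genotype is labeled WT, carried a scrambled sgRNA in the same Cas9 line. Both groups were differentiated into brown adipocytes and then treated with 10 µM forskolin, an activator of adenylyl cyclase, for 6 h at day 6. The induction medium held the phosphodiesterase inhibitor IBMX during early differentiation. RNA-seq was performed on 3 KO and 3 control libraries, and no library without forskolin was analysed, so the response to forskolin itself cannot be read from these data. MICT1 was not analysed here, so the knockout was not checked at its own gene.

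Phosphodiesterases hydrolyse cAMP and cGMP and so end the signal that adenylyl and guanylyl cyclases start. The families differ in substrate and regulation. PDE4, PDE7 and PDE8 enzymes hydrolyse cAMP, PDE5 hydrolyses cGMP, and PDE1, PDE2, PDE3 and PDE10 enzymes hydrolyse both. In adipocytes, catecholamines raise cAMP, which activates PKA and drives lipolysis and thermogenesis. Insulin opposes this by activating PDE3B through Akt, while long forms of the PDE4 enzymes are themselves activated by PKA.

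The members share a catalytic domain whose metal-binding site begins with a histidine and an aspartate followed by a further histidine. The coding sequence of this site is shown for each member because it is a part that related genes could share most closely, and reads from shared sequence could be assigned to the wrong gene. Each stretch is 30 bases of a coding exon, 5′ to 3′ on the coding strand (GRCm38, GENCODE vM21). Capitals mark the codons of the histidine, the aspartate and the next histidine.
Pde4d, chr13:109939313-109939342 + strand: CATGATgtggacCATcctggggtgtcaaat
Pde4b, chr4:102599694-102599723 + strand: CATGATgtcgatCATcctggagtctccaat
Pde4a, chr9:21204375-21204404 + strand: CATGACgtggacCACcctggcgtctccaac
Pde3b, chr7:114526921-114526950 + strand: CACGATtacgatCACccaggaagaacaaat
Pde1a, chr2:79887861-79887890 - strand: CATGATtatgagCACacaggaacaacaaac
Pde7a, chr3:19233721-19233750 - strand: CACGATctggatCACccaggtgttaatcag
Pde8a, chr7:81324067-81324096 + strand: CATGACgtggatCACcctgggagaaccaac
Pde10a, chr17:8967449-8967478 + strand: CATGACctggacCACaggggcttcagtaac
Pde5a, chr3:122824966-122824995 + strand: CATGACttggatCATcgtggcgtgaacaac
Even here no 2 members matched at all 30 bases. Pde4b and Pde4d matched at 25 of 30 bases, the closest pair, and Pde4a matched each of them at 24. Pde1a with Pde3b and Pde4a with Pde8a, from different families, also matched at 24. Pde3b and Pde10a were the least alike, with 14 matching bases. No exact stretch of 50 bases occurred in the transcripts of any 2 members. Stretches with mismatches were not counted and genes other than the members were not compared, so wrongly assigned reads are not excluded. The last residue of the site was asparagine in 8 members and glutamine in Pde7a.

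Values are the deposited normalized signal, which is close to reads per gene after division by a size factor. Reads recovered from them numbered 15445817 to 17925634 per library. Over this depth the members ranged from 25 reads, for Pde5a in a KO library, to 7114 reads for Pde4d in a control library. Counting error alone is 20% of the value at 25 reads and 1.86% at the 2880 reads that were the fewest for Pde4d. The study calls its replicates biological, but neither its methods nor the labels say that these libraries came from separate cultures. The spread between these libraries may therefore be technical. Adjusted p values are from limma-trend with Benjamini-Hochberg adjustment over 12507 genes, and a change is called at an adjusted p under 0.05. The test draws the variance of each gene toward a trend over all genes of like level. Its standard errors, intervals and p values therefore rest only partly on the spread of that gene between these libraries.

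To find which isoforms dominate, levels were compared per length, as RPKM over the exons of each gene. Pde4d and Pde3b were the highest members in both groups. Pde4d had 31.6 ± 4.98 RPKM in control and 15.7 ± 0.859 RPKM in KO cells (SD, n = 3). Pde3b had 26.7 ± 2.58 RPKM in control and 14.5 ± 0.948 RPKM in KO cells. Pde4d was first and Pde3b the second in 6 of 6 libraries, but the ranges of these neighbors overlapped within each group. Pde4b followed at 16.3 ± 0.988 RPKM in control and 12.3 ± 0.877 RPKM in KO cells. Pde7a, Pde1a, Pde10a, Pde8a and Pde4a came next in control cells, from 9.12 ± 0.376 RPKM for Pde7a to 2.73 ± 0.416 RPKM for Pde4a. Pde5a was far below at 0.260 ± 0.0274 RPKM. Apart from Pde4d and Pde3b, no neighbors in this order had overlapping ranges in either group. In KO cells the order differed at one place, with Pde1a (9.89 ± 0.529 RPKM) above Pde7a (8.88 ± 0.336 RPKM).

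This order depends on the length used. Pde4d has 20 annotated transcripts, 13 of them coding, whose exons together span 12006 bases, against 4207 bases for the longest transcript. Pde4d remained first in 6 of 6 libraries with the exon length, the longest transcript, the coding length or no length. With the longest transcript or the coding length, Pde4b ranked above Pde3b in 6 of 6 libraries. With the coding length, Pde7a ranked above both Pde3b and Pde1a in the 3 KO libraries. The table holds one value per gene, so the short and long forms of the PDE4 enzymes were not separated.

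**Figure D1:**
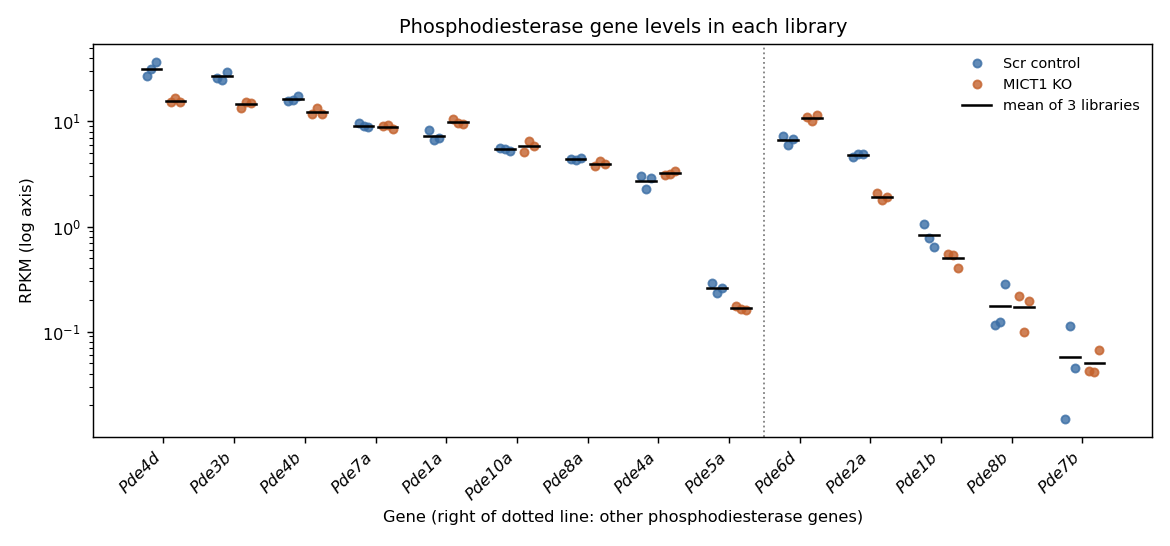
RPKM of each phosphodiesterase gene on a log axis, one point per library and a bar at the mean of the 3 libraries of each group, with the 9 members on the left. Pde4d, Pde3b and Pde4b were the highest members in both groups, and Pde5a was the lowest, at 0.260 RPKM in control and 0.168 RPKM in KO cells.

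Among the cAMP-specific PDE4 genes, Pde4d and Pde4b were lower in KO cells and Pde4a did not pass the test. Pde4d had values of 5195, 6212 and 7239 in the control libraries and 2987, 3263 and 2985 in the KO libraries. All KO values were below all control values, and the control libraries were more spread out. Its mean was 2.02-fold lower, with a log2 fold change of -1.0 (SE 0.082, adjusted p = 1.45e-09, limma-trend). Without control replicate 3, the highest library, the log2 fold change was -0.88.

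Pde4b had values of 2649, 2780 and 3012 in control and 2042, 2281 and 2015 in KO cells. The groups did not overlap, and the mean was 1.33-fold lower with a log2 fold change of -0.41 (SE 0.065, adjusted p = 1.66e-05, limma-trend). Pde4a had values of 373, 286 and 364 in control and 391, 392 and 422 in KO cells. The KO values were all above the control values, but the log2 fold change of 0.24 did not pass the test (95% interval -0.00023 to 0.49, adjusted p = 0.082, limma-trend), and without control replicate 2 it was 0.12.

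The ratios among the 3 PDE4 genes were then compared within each library. The log2 ratio of Pde4b to Pde4d was -0.97, -1.16 and -1.26 in control and -0.55, -0.52 and -0.57 in KO cells. The mean difference in this ratio was 0.59, and it was 1.24 for Pde4a to Pde4d and 0.66 for Pde4a to Pde4b. None of these ratios overlapped between groups. In a two-sided exact permutation test each gave p = 0.1, the smallest that 3 against 3 allows, and 0.13 after adjustment over the 4 ratios tested.

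Pde3b, which mediates the antilipolytic action of insulin, was also lower in KO cells. Its values were 3799, 3732 and 4420 in control and 2011, 2253 and 2207 in KO cells. The groups were far apart, and the mean was 1.85-fold lower with a log2 fold change of -0.88 (SE 0.068, adjusted p = 4.92e-10, limma-trend). The log2 ratio of Pde3b to Pde4d was -0.63 ± 0.16 in control and -0.51 ± 0.070 in KO cells (SD, n = 3). The difference of 0.12 was 0.21 without control replicate 1 and 0.068 without control replicate 2. The ratios of the groups overlapped, and the exact permutation test gave p = 0.3, in a design of 3 against 3 that cannot go below 0.1.

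Pde1a, whose enzyme is activated by calcium and calmodulin, was the one member that was higher in KO cells. Its values were 796, 658 and 680 in control and 1036, 948 and 927 in KO cells. The groups did not overlap, and the mean was 1.36-fold higher with a log2 fold change of 0.45 (SE 0.086, adjusted p = 0.000136, limma-trend).

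The remaining members did not pass the test. Pde7a, which encodes a cAMP-specific enzyme that is insensitive to rolipram, had values of 1192, 1155 and 1123 in control and 1139, 1157 and 1072 in KO cells. Its groups overlapped, and the 95% interval of the log2 fold change was -0.19 to 0.10 (adjusted p = 0.61, limma-trend). Pde10a, a dual-substrate enzyme best known from the striatum, had values of 1154, 1174 and 1094 in control and 1079, 1348 and 1210 in KO cells. Its groups also overlapped, with a 95% interval of -0.081 to 0.25 (adjusted p = 0.39, limma-trend). Changes larger than these bounds are outside the intervals of both genes.

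Pde8a, a high-affinity cAMP-specific enzyme that IBMX does not inhibit, had values of 284, 288 and 296 in control and 250, 275 and 257 in KO cells. The KO values were all below the control values, but the interval of its log2 fold change was -0.40 to 0.096 (adjusted p = 0.29, limma-trend). Pde5a, the cGMP-specific member, had values of 45.5, 38 and 41.7 in control and 28.6, 26.3 and 25.9 in KO cells. These were also below the control in every library, but at 25 to 46 reads the interval was wide, -1.26 to 0.038 (adjusted p = 0.10, limma-trend).

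In all, 3 of the 9 members were lower and 1 was higher in KO cells. Among all 12507 genes tested, 28.3% were lower and 28.5% were higher. The 4 members that changed in either direction stand against 56.9% of all genes, and the 7 members whose groups did not overlap stand against 62.0%. The median log2 fold change of the members was -0.15, against -0.0053 for all genes. The number of members that changed was thus no larger than the background.

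**Figure D2:**
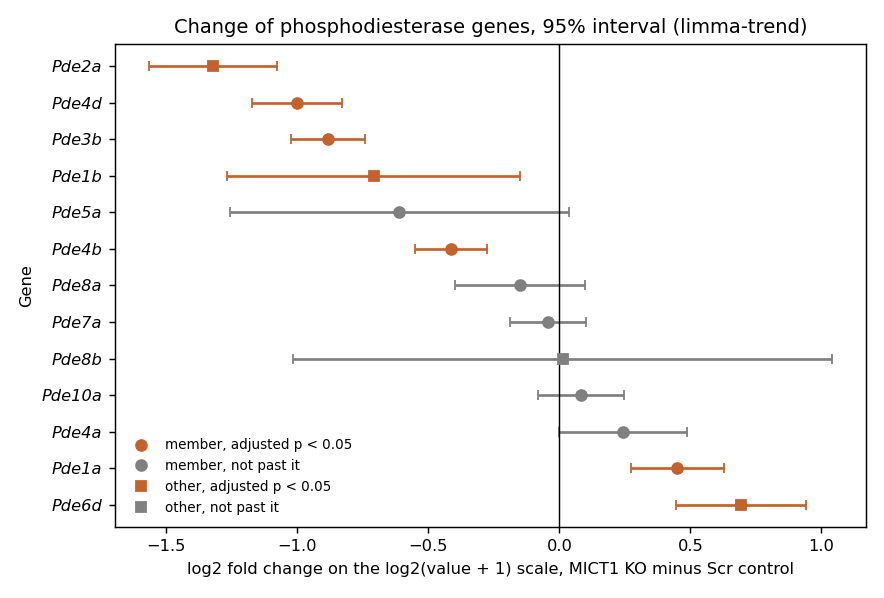
Log2 fold change of each tested phosphodiesterase gene with its 95% interval from limma-trend, KO minus control, where circles are members, squares are other phosphodiesterase genes and orange marks an adjusted p under 0.05. Pde4d (-1.0), Pde3b (-0.88) and Pde4b (-0.41) were lower and Pde1a (0.45) was higher, while the intervals of the other 5 members included 0.

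The 3 members with the highest RPKM were those that fell. The summed level of the 13 catalytic phosphodiesterase genes in the table was 105.1, 105.4 and 118.3 RPKM in the control libraries and 74.8, 80.4 and 75.8 RPKM in the KO libraries. The groups did not overlap, and the mean was 29.7% lower in KO cells. Of the difference of 32.6 RPKM, Pde4d gave 15.9 RPKM and Pde3b 12.2 RPKM, together 86.2%. The PDE4 genes together fell from 50.6 ± 5.94 to 31.2 ± 1.69 RPKM (SD, n = 3). These sums describe mRNA per length and not enzyme activity, and no test was made on them.

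As shares of the sum, Pde4d held 28.7% ± 2.86 in control and 20.4% ± 0.315 in KO cells (SD, n = 3), and Pde3b held 24.3% ± 0.856 and 18.8% ± 0.863. The share of Pde4b was 14.9% ± 0.162 in control and 15.9% ± 0.524 in KO cells, although its own level was lower. The share of Pde1a was 6.64% ± 1.05 in control and 12.9% ± 1.03 in KO cells. By substrate, with the exon length, the makeup was close in both groups. Genes of cAMP-specific enzymes held 58.7% of the sum in control and 57.4% in KO cells, with ranges that overlapped, and genes of enzymes for both nucleotides held 41.1% and 42.3%. In control cells Pde4d held 28.7% with the exon length but 41.7% with the longest transcript, so the shares depend on the length used. The shares by substrate were computed with the exon length only, so whether they stay close with another length was not tested.

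**Figure D3:**
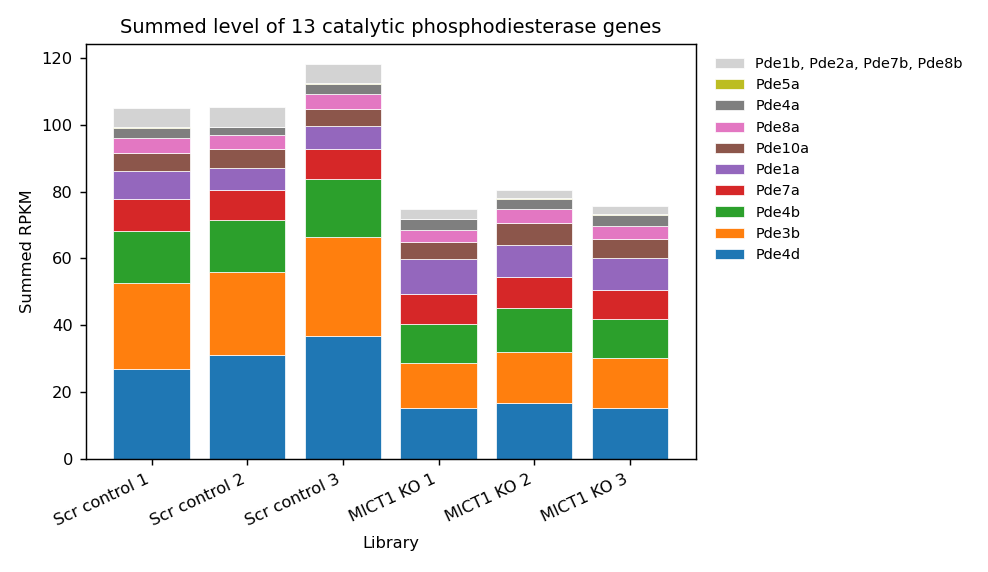
Summed RPKM of the 13 catalytic phosphodiesterase genes in each library, stacked by gene, with the 4 genes that are not members in gray. The control libraries reached 105.1 to 118.3 RPKM and the KO libraries 74.8 to 80.4 RPKM, with the difference mainly in the Pde4d and Pde3b segments.

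Of 15 further phosphodiesterase genes listed, 5 were in the table and 4 were tested, with 2 lower and 1 higher in KO cells. Among all genes tested, 28.3% were lower and 28.5% higher. Pde2a, whose enzyme is stimulated by cGMP, had values of 452, 503 and 498 in control and 211, 180 and 190 in KO cells. Its mean was 2.50-fold lower, with a log2 fold change of -1.32 (SE 0.12, adjusted p = 5.07e-09, limma-trend), while its level per length was lower than that of Pde4d, 4.81 RPKM in control cells. Pde6d, which encodes a prenyl-binding chaperone and not a catalytic subunit, had values of 255, 217 and 240 in control and 393, 355 and 405 in KO cells, a log2 fold change of 0.69 (adjusted p = 4.42e-05, limma-trend). Pde2a and Pde6d thus moved in opposite directions with no overlap between groups.

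Pde1b, a paralog of Pde1a, had values of 92.0, 69.5 and 57.0 in control and 48.6, 47.4 and 35.2 in KO cells. It was lower, with a log2 fold change of -0.71 (adjusted p = 0.029, limma-trend), but it did not pass the test without control replicate 1 (adjusted p = 0.16), control replicate 2 (0.061) or KO replicate 3 (0.10). Pde8b had values of 9.48 to 27.5 over the 6 libraries, too low to show a direction (95% interval -1.02 to 1.04). Pde7b, at 2.97 to 23.2, was below the filter. The other 10 genes, among them Pde3a, Pde4c and Pde9a, were not analysed here.

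Genes that act around the phosphodiesterases changed in both directions, as did all genes tested. The counts of this list and of the lists below stand against 28.3% of all genes lower and 28.5% higher. Of 14 tested partners and scaffolds, 7 fell and 4 rose (median log2 fold change -0.077). Abhd15, an adipocyte protein that binds and stabilizes PDE3B, had values of 676, 737 and 859 in control and 150, 196 and 281 in KO cells. That is a 3.63-fold lower mean (log2 fold change -1.89, adjusted p = 2.27e-09, limma-trend). Akt2, the kinase that carries the insulin signal to PDE3B, was 1.74-fold lower, and Arrb1, a beta-arrestin that recruits PDE4 enzymes to receptors, was 1.6-fold lower. The scaffold Rack1 (1.26-fold) and the kinase Akt1 (1.14-fold) were higher in KO cells. Pik3r5, a regulatory subunit of PI3K gamma, rose more, from 14.8, 21.3 and 16.3 in control to 41.0, 62.2 and 51.8 in KO cells (log2 fold change 1.51, adjusted p = 0.00079, limma-trend), at low values.

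Of 7 tested genes for cyclic nucleotide synthesis, 2 fell and 2 rose, and the median log2 fold change was 0.44. The adenylyl cyclase genes Adcy9 (2.01-fold) and Adcy6 (1.26-fold) were lower. Adcy7 (2.77-fold), another adenylyl cyclase, and Npr2 (1.36-fold), a receptor guanylyl cyclase, were higher. Forskolin activates most membrane adenylyl cyclases directly, and the product of Adcy9 is known as the exception.

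Of 13 tested effectors of cAMP and cGMP, 3 fell and 6 rose (median log2 fold change -0.026). The PKA regulatory subunit Prkar2b had values of 1878, 1557 and 2135 in control and 552, 541 and 612 in KO cells (3.27-fold lower). Prkar2a (1.56-fold) and the catalytic subunit Prkacb (1.18-fold) were also lower. Prkar1b (3.21-fold), the cGMP-dependent kinase Prkg2 (2.26-fold) and the channel Hcn2 (1.80-fold) were higher. Type II and type I regulatory subunits of PKA thus differed in direction among these genes, and Prkar1a (1.16-fold) was higher as well.

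All 4 tested genes for export of cyclic nucleotides and inhibition of PKA changed, against 56.9% of all genes. The transporter Abcc5 (1.63-fold) and the PKA inhibitor Pkig (1.43-fold) were lower, while the transporter Abcc4 (1.29-fold) and the PKA inhibitor Pkia (2.68-fold) were higher. In each pair one gene was lower and one higher.

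**Figure D4:**
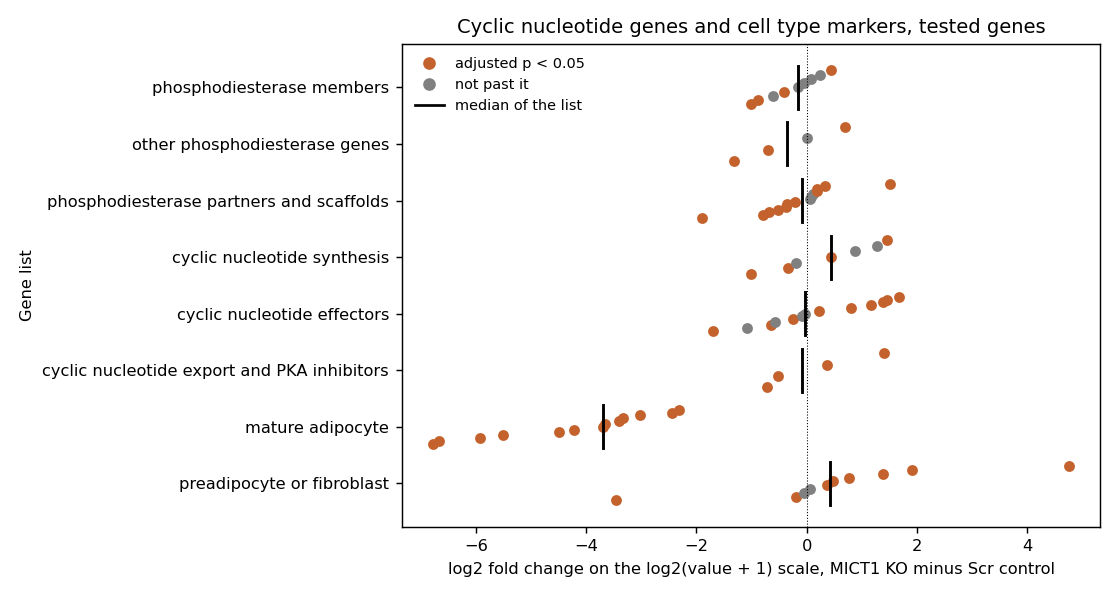
Log2 fold change of every tested gene of the phosphodiesterase, cyclic nucleotide and 2 marker lists, KO minus control, with orange for an adjusted p under 0.05 and a bar at each list's median. The cyclic nucleotide lists spread to both sides of 0, whereas all 13 mature adipocyte markers were below 0 with a median of -3.70.

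The state of differentiation moved with the same contrast. All 13 mature adipocyte markers were lower in KO cells, and their summed value was 145996 to 172214 in control and 16097 to 23258 in KO libraries. Adipoq was 117-fold lower, Plin1 52.0-fold lower and Fabp4 9.77-fold lower. Of 10 tested preadipocyte or fibroblast markers, 6 were higher and 2 lower, among them Dcn with a log2 fold change of 4.75 and Dlk1 with -3.47. Their summed value was 68308 to 77659 in control and 153353 to 167821 in KO libraries. The largest part of this rise was Fn1, with means of 23246.5 in control and 87524.9 in KO cells. Col1a2 and Col3a1 did not pass the test. Of 3 tested brown adipocyte markers, 2 were lower and 1 higher (summed 3356 to 4011 in control and 2306 to 2503 in KO libraries). Ppargc1a, also in this sum, was below the filter, at 2.04 to 8.90 in control and 1.04 to 15.8 in KO libraries. Nearly all of this sum was Zic1, with means of 3586 in control and 2267 in KO cells. Ebf2 was the higher marker, 2.39-fold (log2 fold change 1.24, adjusted p = 2.03e-05, limma-trend). Ucp1, the defining brown adipocyte gene, was low in control cells at 20.8, 24.1 and 30.5 and lower still in KO cells at 1.91, 1.05 and 9.33, and Cidea, Dio2, Elovl3, Prdm16 and Cox8b were not analysed here. The falls of Pde4d, Pde3b and Pde4b were small beside those of the mature adipocyte markers. Zic1, with a log2 fold change of -0.66, fell less than Pde4d and Pde3b and more than Pde4b. In bulk RNA, fewer cells of a type and less RNA per cell cannot be told apart, and the part of differentiation in the phosphodiesterase values was not tested.

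Of 6 tested smooth muscle or pericyte markers, 2 were lower, with a summed value of 1433 to 1572 in control and 1158 to 1263 in KO libraries. Acta2 was 2.53-fold and Cspg4 1.92-fold lower, while Mcam, at 590 to 733 in control and 591 to 658 in KO cells, did not pass the test. Of 4 macrophage markers 1 was higher (summed 267 to 384 and 516 to 638), with Adgre1, Lyz2 and Ptprc not analysed here. Most of the rise in this sum was Cd14, with means of 192 in control and 444 in KO cells. Csf1r, Cd68 and Mrc1 did not pass the test. The endothelial marker Cdh5 was higher but did not exceed 33.4 in any library, with Pecam1, Kdr, Tek, Tie1 and Emcn not analysed here. The skeletal muscle marker Acta1 did not pass the test, with a summed list value of 17.9 to 35.6 over all libraries. Myod1, Myog, Myf5 and Ckm were not analysed here. The part of these cell types was not tested.

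Across the 6 libraries, the genes whose log2 values were most like those of Pde4d, the highest member, were Cdc73, Mcm5 and Ist1, each with a Pearson r of 0.997 over libraries that fall into the same groups. This is a description of 6 points that share the contrast between KO and control.

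Because forskolin raises cAMP, the windows around RefSeq transcription starts were searched for the cAMP response element. Windows of 300 bases, from 250 before to 50 after the start (GRCm38.p6), were held for 7 of the 9 members, 16 windows in all, and none for Pde3b or Pde7a. The full element TGACGTCA, read on both strands, was in 0 of 16 windows and in 1.79% of all 32851 windows. The shorter element TGACG, also on both strands and contained in the full one, was in 4 of 16 windows and in 20.8% of all windows. These were one window each of Pde4b, Pde8a, Pde4a and Pde1a. For the PDE4 genes that were lower, the Pde4b window with the shorter element, in capitals as its reverse complement CGTCA 34 bases before the start, and the window of Pde4d, which holds none, are shown 5′ to 3′.
Pde4b, chr4:102421305-102421604 + strand: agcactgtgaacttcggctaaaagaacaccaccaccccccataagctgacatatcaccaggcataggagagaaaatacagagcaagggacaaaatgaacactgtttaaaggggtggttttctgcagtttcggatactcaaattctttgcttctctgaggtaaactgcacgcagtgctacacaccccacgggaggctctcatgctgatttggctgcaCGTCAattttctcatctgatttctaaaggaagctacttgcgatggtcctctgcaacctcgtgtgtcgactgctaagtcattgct
Pde4d, chr13:108653927-108654226 + strand: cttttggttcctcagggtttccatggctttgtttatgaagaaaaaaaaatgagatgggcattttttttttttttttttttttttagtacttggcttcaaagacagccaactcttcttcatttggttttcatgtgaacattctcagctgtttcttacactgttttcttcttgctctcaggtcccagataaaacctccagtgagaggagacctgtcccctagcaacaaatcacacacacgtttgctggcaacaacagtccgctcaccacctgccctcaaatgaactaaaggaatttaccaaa
These genes have other starts that were not searched, since Pde4d is represented by one window against 20 annotated transcripts. A match is a run of letters and not a measured binding site, and the members with the shorter element include genes that were lower, higher and not past the test.

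The members lie at separate places in the genome (GRCm38, GENCODE vM21). Pde4d is at chr13:108449948-109953461 on the plus strand, Pde4b at chr4:102087543-102607259 on the plus strand and Pde4a at chr9:21165714-21213248 on the plus strand. Pde3b is at chr7:114415281-114539251 and Pde8a at chr7:81213596-81334533, both on the plus strand of chromosome 7. Pde1a is at chr2:79834453-80129458 and Pde7a at chr3:19223108-19311322, both on the minus strand, with Pde5a at chr3:122728947-122859374 and Pde10a at chr17:8525372-8986648 on the plus strand. The libraries were strand-specific by the methods. Exons of Pde5a and Pde7a overlap an opposite-strand transcript by 55 and 48 bases, 0.559% and 0.620% of their exon length. Whether the counting used strand is not given in the sources used here, and no other member had such an overlap.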

How the data were processed

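Total RNA of 6 libraries (3 MICT1 KO, 3 Scr control) was made into strand-specific libraries and sequenced as paired ends. The authors deposited 1 normalized signal per gene and library. The submitters' processing notes name Partek, STAR and DESeq2 and the builds GRCm38 and mm10, with no roles. The counting model, annotation and whether counting used strand are not given in the sources used here. All 13283 genes listed were above 0 in every library, and a gene at 0 in any library could not be assessed. The low values were close to whole reads divided by a size factor of 0.949 to 1.08 per library (89.2% to 90.7% of values under 20 within 0.02 of a whole number). The 9 members' values gave whole reads in 6 of 6 libraries. The plan named limma-trend, with a count test only if the deposited values were whole counts. They were a normalized signal, so limma-trend was used.

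Groups came from the sample labels. The 12507 genes that reached a value of 10 in 3 or more libraries were tested on log2(value + 1) with limma 3.58.1 in R 4.3.3, which understates the change of low genes, with Benjamini-Hochberg adjustment and a threshold of 0.05. Fold changes in the text are ratios of means of the deposited signal. RPKM was computed from the sum of values of a library and the GENCODE vM21 exon length. Shares used 13 catalytic genes and left out Pde6d. Ratios of members were compared by exact permutation. The limma-trend fit in its main setting was tested on simulated data before use, and the permutation function on a made-up set of values. The other steps had no such test. The members and lists were chosen with earlier results of these data known. All members and listed phosphodiesterase genes are named; of the other pathway lists, the 3 largest rises and falls with an adjusted p under 0.05 and a mean of at least 50, of which 1 is not reported here; Prkar1a, Pik3r5, the defining genes of marker lists and other marker genes were chosen after their values were seen where outside this rule. The last residue of the catalytic pattern was widened from asparagine to asparagine or glutamine after Pde7a gave no match. Alternatives were library size and trimmed mean scaling, pseudocounts of 0.5 and 5, no filter, a filter of 1 CPM, limma-voom, omission of each library, a block for replicate number, and other lengths. Intervals cover the spread between libraries only, with the variance of each gene drawn toward the trend, and counting errors cover counting only.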

Additional observations from a re-analysis of the deposited data

How the results depend on the processing

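The calls and directions of the 9 members were the same under all 14 alternatives. Pde4d ranged from -1.12 to -0.88, Pde3b from -0.93 to -0.81, Pde4b from -0.47 to -0.36 and Pde1a from 0.40 to 0.53 on the log2 scale, with the extremes where a library was left out. The adjusted p of Pde4a ranged from 0.052 to 0.41, that of Pde5a from 0.089 to 0.22 and that of Pde10a from 0.078 to 0.98. The 4 log2 ratios kept their sign with pseudocounts of 0.5 and 5 and with each library left out, alternatives chosen after seeing the data. The count of other phosphodiesterase genes that were lower was 1 to 2 with a library left out, since Pde1b was lost (log2 fold change -0.87 to -0.53), and Pde8b ranged from -0.22 to 0.41. With a pseudocount of 5, 5 effectors were lower in place of 3, and the cause was not tested.

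The shares depended on the length. Without length, with the longest transcript and with the coding length, Pde4d held 35.8%, 41.7% and 35.5% in control and 26.5%, 31.4% and 25% in KO cells. Pde3b held 23.1%, 17.2% and 16.7% in control, and 14.1% (longest transcript) and 12.8% (coding length) in KO cells. Pde4b held 16.3%, 18.6% and 17.6% in control and 18.2%, 21.0% and 18.7% in KO cells. With a library left out, the share of Pde4d was 27.6% to 30.3% in control.

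The deviations of libraries with the same replicate number had correlations of -0.024, -0.015 and 0.064. Those of libraries with different numbers were -0.043 to 0.056. With 3 libraries per group, these values cannot show whether libraries of the same number shared a culture or a day. With the number as a replicate block, 3512 genes were lower and 3543 higher, against 3544 and 3569, and no call of a member changed. Pde5a, at 25 to 46 reads, and the low Pde7b and Pde8b are limited by depth.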
